A study of Gasterosteus aculeatus with 29 samples.

Results

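Brains of female and male three-spined stickleback (Gasterosteus aculeatus) were compared across all exposure groups of the series. The comparison held 16 fish labelled female and 11 labelled male, which is 27 of the 29 fish. Another 2 fish labelled male were kept out and are described separately: male 13, whose values lay with those of females, and male 5, whose library stood apart from all others. Fish are named by sex and a number that marks a sample and pairs nothing.

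The study crossed predation risk met by a father during care of his young with predation risk met by the young themselves as juveniles. Among fish with both exposures there were 4 females and 2 males. Personal exposure only was represented by 5 females and 4 males, paternal exposure only by 5 females and 3 males, and neither exposure by 2 females and 2 males. The females were daughters of 10 fathers and the males were sons of 7 of these fathers. In the group with both exposures, the 2 males were brothers (father M15), whereas the 4 females were daughters of M43, M42 and M11. The age of the fish and the genetic background of the fathers are not given in the labels.

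In three-spined stickleback, females carry a pair of X chromosomes and males an X and a Y. Over much of its length the Y chromosome no longer recombines with the X and has lost many of the genes that the X still holds. Unlike mammals, sticklebacks do not fully balance the output of the X between the sexes, so genes that only the X carries tend to have lower RNA levels in males. Genes kept or gained by the Y can be read in males alone, or in both sexes where reads of the Y copy map to its X partner. This is background on the species. The gene identifiers of the table were not paired with symbols or chromosomes in the sources used here, so no gene below is assigned to a chromosome or given a function.

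RNA was enriched for poly-A tails from whole brains, 1 library per fish. The table held 2244609 to 55155451 reads per female library (median 7068494) and 2844706 to 47411814 per male library (median 8465719). Values are log2 CPM (log2 of reads relative to a scaled library size) as deposited, and differences are female minus male on that scale. They are not per length, so levels were compared between fish within a gene. In whole-brain RNA, a change in the number of cells of a type and a change in RNA per cell cannot be told apart. The spread of a library around the gene medians was 0.249 to 0.443 in females and 0.251 to 0.481 in males, against 1.52 in male 5.

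Female brains had higher RNA levels than male brains for many genes, with a median ratio a little under 2, and lower levels for fewer. At an adjusted p under 0.05 (limma-trend with exposure group in the model and father as a random block, Benjamini-Hochberg over 16660 genes), 609 genes differed between the sexes, 3.66% of those tested. Of these, 513 were higher in females (3.08% of all genes tested) and 96 were lower in females (0.576%). The median difference of the genes higher in females was 0.92, a 1.89-fold ratio, with an interquartile range of 0.69 to 1.06. For the genes lower in females it was -0.32, with an interquartile range of -0.59 to -0.23. Over all genes tested the median difference was -0.01. When limma-voom was run on reads recovered from the table, it called 1109 genes, 711 higher and 398 lower in females. The called genes lower in females are therefore the less settled set, and the share of calls that were higher in females was 84.2% with limma-trend and 64.1% with limma-voom.

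More than any other class of size, the genes higher in females had a difference near 1. Among genes with a fitted difference between 0.8 and 1.2, 292 of 361 passed the test, which is 80.9% of that class and 56.9% of all genes called higher in females. A difference of 1 or more was found in 178 of the 513, and one under 0.8 in 171. On the opposite side, 84 genes had a difference between -1.2 and -0.8, and 9 of them passed. There were 78 genes with a difference of 0.7 to 0.8, 93 at 0.8 to 0.9, 115 at 0.9 to 1.0, 101 at 1.0 to 1.1 and 52 at 1.1 to 1.2. On the male side there were 63 genes at -0.8 to -0.7, 35 at -0.9 to -0.8, 20 at -1.0 to -0.9, 14 at -1.1 to -1.0 and 15 at -1.2 to -1.1. A second, smaller rise near a difference of 1 was thus present on the female side, as the histogram of differences shows.

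**Figure D1:**
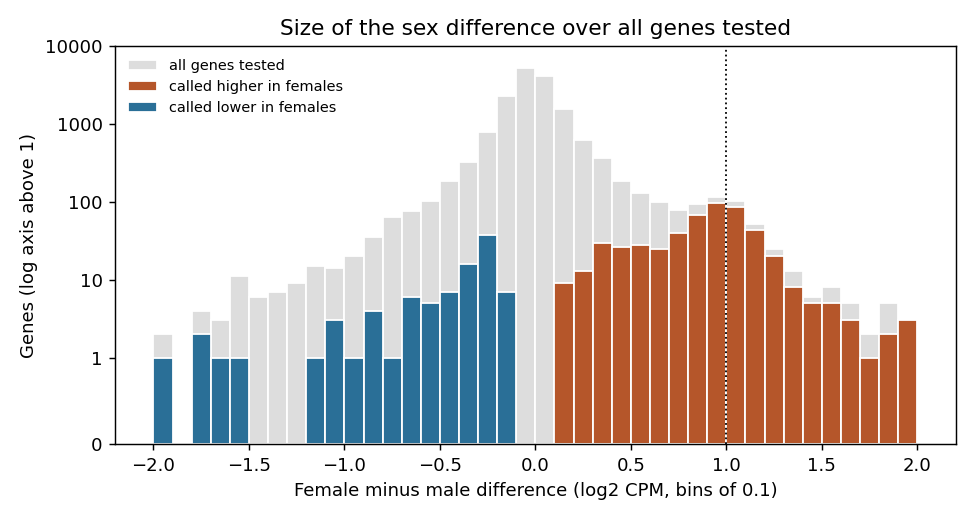
Number of genes by female minus male difference in log2 CPM, in bins of 0.1 (vertical axis logarithmic above 1), with the genes past the threshold coloured by direction. Counts on the female side rise again to 115 genes at 0.9 to 1.0, where the matching bin on the male side holds 20; the 16 genes with a difference beyond 2 in either direction, 6 of them called, are not drawn.

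Many of these differences separated the sexes without overlap. For 254 genes (1.52% of those tested) the lowest female lay above the highest male, and the median difference of these genes was 0.97, with an interquartile range of 0.89 to 1.09. For 9 genes (0.054%) the highest female lay below the lowest male, with a median difference of -1.63. All of these genes also passed the test. These counts depend on leaving out male 13, which the rule of the comparison removed for its female-like values: with that fish counted as male, 13 genes had all females above all males and 0 had all females below. With male 5 alone added the counts were 164 and 7. Of the 254, 192 had a difference between 0.8 and 1.2. All 9 genes on the male side had a difference beyond -0.8.

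Both directions differed in how size varied with level. When genes were divided by mean log2 CPM into 3 classes of equal number, the genes called higher in females were spread evenly, with 178 in the low class, 165 in the middle class and 170 in the high class. Their median difference was 0.97, 0.92 and 0.85 in these classes. The genes called lower in females numbered 24, 42 and 30, with medians of -0.71, -0.30 and -0.25. The lower quartile of the genes higher in females was 0.82, 0.74 and 0.49, so the called genes of high level included more small differences. The size that can pass the test changes with level, and these values describe genes chosen by that test. Between-sex variance made up a median of 75.2% of the variance of a gene called higher in females and 38.6% of that of a gene called lower, against 3.23% over all genes. These shares describe genes chosen by the same comparison.

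**Figure D2:**
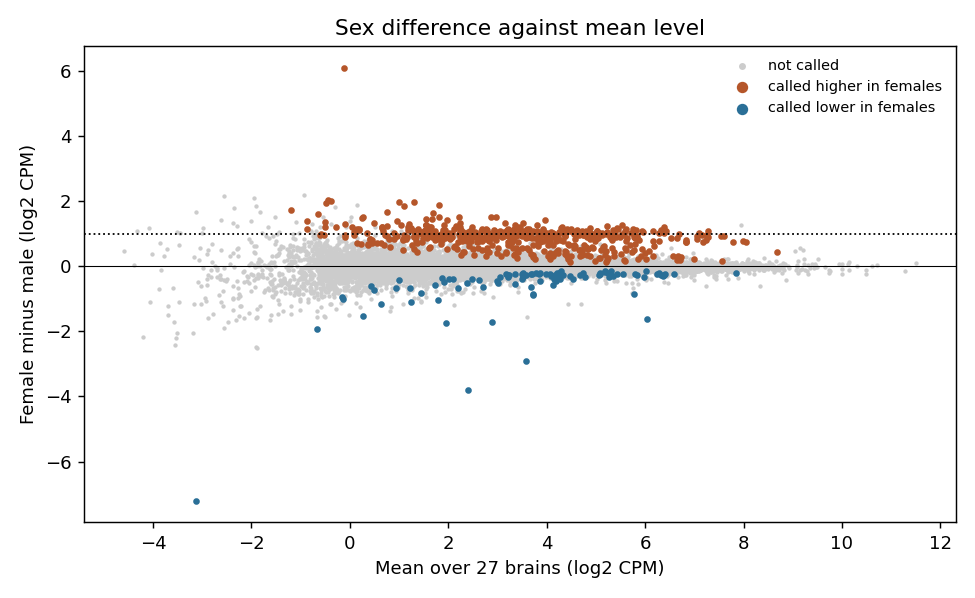
Female minus male difference (log2 CPM) of each of the 16660 genes against its mean log2 CPM over the 27 brains, with called genes coloured by direction and a dotted line at 1. The points called higher in females form a band around 1 at most levels, while most points called lower in females lie close to 0 and a few far below.

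Sex was not the main axis of variation between these brains. The first principal component of the tested genes held 16.1% of the variance, of which 2.03% lay between the sexes. Components 3 and 6 held most of what separated the sexes. Component 3 held 10.5% of the total variance, with 35.3% of it between the sexes, and component 6 held 4.64%, with 48.7% between the sexes. None of the first 10 components separated females from males completely. Over all genes together, 7.03% of the variance was between the sexes.

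Few single genes differed far beyond the common factor. By the rule for named genes (the largest called differences among genes whose mean log2 CPM reached 1), ENSGACG00000014118 and ENSGACG00000006806 stood first among genes higher in females. ENSGACG00000014118 had a lowest, median and highest log2 CPM of 1.43, 2.23 and 2.82 in the 16 females, against -0.98, 0.09 and 1.35 in the 11 males. Every female lay above every male. The means were 2.17 ± 0.50 in females and 0.06 ± 0.71 in males (SD, n = 16 and 11), and the fitted difference was 1.96 ± 0.20 (SE, limma adjusted p = 1.65e-08). It rested on 14 to 748 reads per female library and 5 to 69 per male library.

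The level of ENSGACG00000014118 was also uneven between fathers, in both sexes, a pattern noticed after the values were seen and not tested. The 1 daughter of father M31 had 2.82 and the 2 daughters of M42 averaged 2.39. The 1 son of each of these fathers had 1.35 and 1.14. The 2 daughters of M8 and the 1 daughter each of M11, M15, M20 and M33 gave means or values of 1.43 to 1.79. M8 had 1 son and the others had 2 each, with means or values of -0.42 to 0.08. With so few fish per brood, differences between fathers cannot be told apart from differences between single fish. Fathers M9, M41 and M43 had daughters only in the table, with means of 2.65, 2.39 and 2.48. Within each of the 7 broods with both sexes the daughters were higher, by 1.25 to 1.93. The difference was 1.47 and 1.25 in the broods of M31 and M42, and 1.64 to 1.93 in the other 5. Whether it depends on the level of the brood was not tested.

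ENSGACG00000006806 had a lowest, median and highest log2 CPM of 1.31, 2.95 and 3.50 in females, against -0.92, -0.02 and 2.93 in males. The sexes overlapped: 9 of 16 females lay above every male, and 4 males had values of 2.03 to 2.93. The fitted difference was 1.89 ± 0.40 (limma adjusted p = 0.00283). Of the father M20, male 2 had -0.92 and his brother male 3 had 2.93, both with personal exposure only. Sons of M11 also lay apart, at 2.78 in male 11 and -0.19 in male 12.

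The gene with the largest positive difference of all was ENSGACG00000013996, which is outside the naming rule because of its low mean and was chosen after its values were seen. Its lowest, median and highest log2 CPM were 0.63, 2.84 and 3.52 in females, against -6.77, -4.55 and 2.59 in males, where -6.77 is the value of 0 reads. Summed over libraries it had 2759 reads in females and 107 in males. In 4 males it had no read, and in males 8 and 10 it had 14 and 74 reads. The fitted difference was 6.10 ± 0.73 (limma adjusted p = 4.98e-07), a value that depends on the prior added to 0 reads. The 2 males with more than 11 reads were the sons of M31 and M42, the same fish that were the highest males for ENSGACG00000014118. Their log2 CPM was 1.16 in male 8 and 2.59 in male 10, and the other 9 males lay between -6.77 and -3.13.

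Among genes lower in females, ENSGACG00000013963 and ENSGACG00000012640 came first by the same rule. ENSGACG00000013963 had a lowest, median and highest log2 CPM of -0.44, 0.44 and 3.24 in females, against 4.13, 4.58 and 4.87 in males. All females lay below all males, with a difference of -3.82 ± 0.37 (limma adjusted p = 7.76e-09). Females fell into separate ranges, seen after the values were known: females 5, 9, 12 and 15 had 3.12, 2.58, 3.24 and 2.71, and the other 12 had 0.75 or less. Each of these 4 had a sister by the same father in the low range. Female 4, a sister of female 5, had 0.06, and female 14, a sister of female 15, had 0.43. The SD was 1.25 in females and 0.24 in males (n = 16 and 11).

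ENSGACG00000012640 had a lowest, median and highest log2 CPM of 1.71, 2.57 and 2.93 in females, against 4.74, 5.29 and 5.71 in males. The ranges did not meet. The gene had 17 to 901 reads per female library against 265 to 4743 per male library, and the difference was -2.90 ± 0.14 (limma adjusted p = 1.12e-14). It was lower in the daughters of all 7 broods with both sexes, by -3.71 to -2.21.

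The smallest p-value of the comparison belonged to ENSGACG00000012099, again chosen after its values were seen. Its lowest, median and highest log2 CPM were 5.28, 5.35 and 5.49 in females, against 6.75, 7.01 and 7.10 in males. Both sexes were tight, with an SD of 0.06 in females and 0.10 in males (n = 16 and 11). The difference was -1.63 ± 0.04 (limma adjusted p = 8.31e-22), and in the 7 broods it lay between -1.74 and -1.44.

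The gene with the largest negative difference of all, ENSGACG00000011745, was nearly without reads in females; it too was chosen after its values were seen. In 12 of 16 females it had 0 reads, in 3 it had 1 read and in female 12, the deepest library, it had 6. Males had 14 to 164 reads each. Summed reads were 9 in females and 777 in males. Relative to the summed reads of all deposited genes, the level was 0.0533 CPM in females and 4.58 CPM in males. This denominator is not the scaled library size, so these values cannot be set against the log2 CPM values of single fish. The fitted difference was -7.20 ± 0.60 (limma adjusted p = 5.48e-10) and depends on the prior at 0 reads. No gene had 0 reads in every female or in every male.

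**Figure D3:**
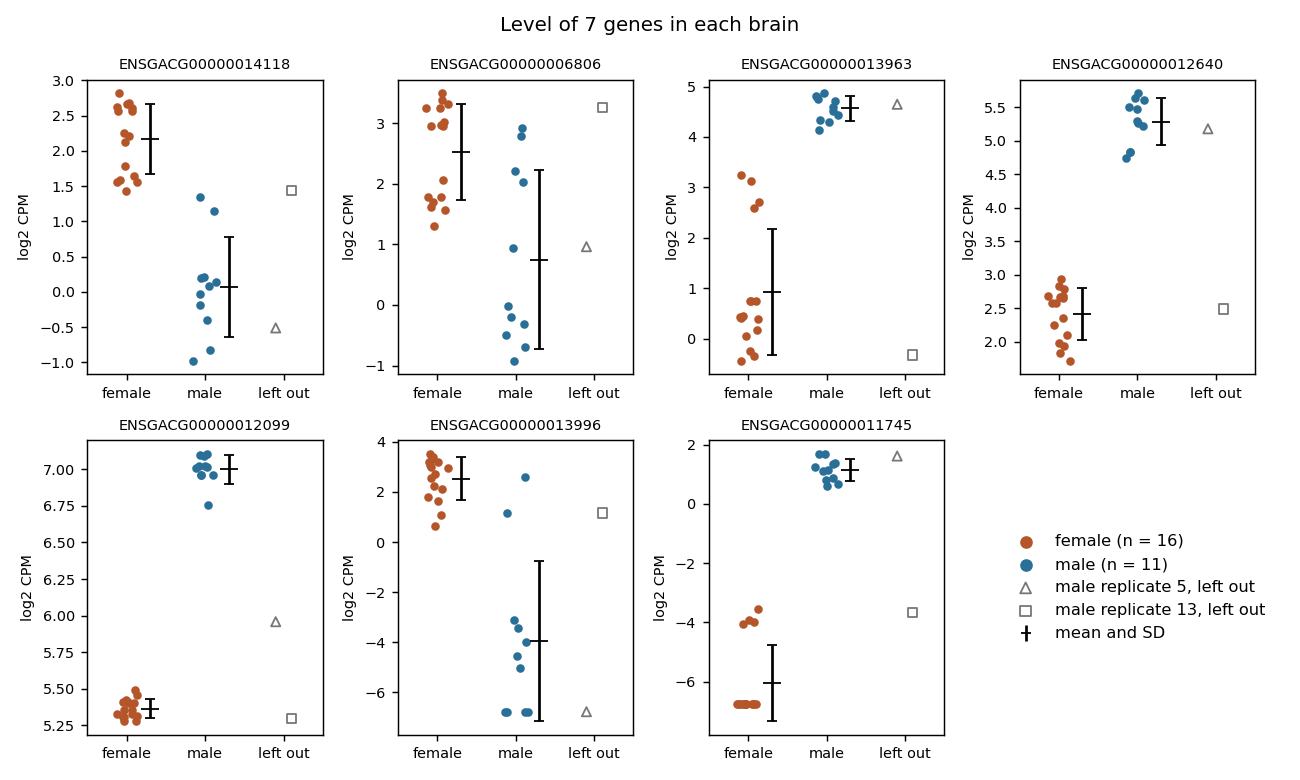
Log2 CPM of the 7 named genes in each brain, with females (n = 16), males (n = 11) and the 2 males left out side by side in each panel and bars at the mean and SD. The sexes overlap in ENSGACG00000006806 and ENSGACG00000013996 and are separate in the other 5, and 4 females of ENSGACG00000013963 lie above the remaining 12.

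A permutation test of each of these 7 genes (100000 resamples, sex labels exchanged within exposure groups, two-sided) gave 2.0e-05 for 6 of them, for which 1 resample was as large as the observed difference, and 0.00142 for ENSGACG00000006806. These tests are over fish and do not take siblings into account. The genes were chosen from the same fish for their large differences or small p-values, and no allowance is made for that choice. In the 6 genes the sexes did not overlap within any exposure group. A value near the smallest that these resamples can give was thus fixed in advance and is no separate support for these genes.

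The size of the difference in fish that had no part in choosing the genes was measured by leaving out each father with all his offspring. Genes were called without that brood, and the daughters were then set against the sons within it. Each brood held only 1 or 2 fish of each sex, so the value of any brood rests on few fish. Siblings that differed in personal exposure were compared without adjustment for it. Male 13, a son of M11, and male 5, a son of M8, had been left out for their expression, so the values of these broods are in part fixed by that choice. Of the genes called higher in females elsewhere, 92.6% to 97.8% were higher in the daughters of the brood left out, and the median difference was 0.78 in the brood of M31 and 0.83 to 0.94 in the other 6. Of all tested genes, 47.5% to 51.7% were higher in the daughters. For the genes called lower in females the share was more variable. In the brood of M42 it was 50 of 56 genes and in that of M15 it was 54 of 62, but in the brood of M11 it was 48 of 94 (51.1%), with a median difference of -0.01. Leaving out whole exposure groups gave 96.2% to 99.8% for the genes higher in females, with medians of 0.90 to 0.92, and 73.1% to 96.9% for the genes lower in females. Male 13 had both exposures and male 5 neither, so the values of those groups are likewise in part fixed by leaving these fish out. Siblings of fish in the group left out also remained among the fish that called the genes.

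**Figure D4:**
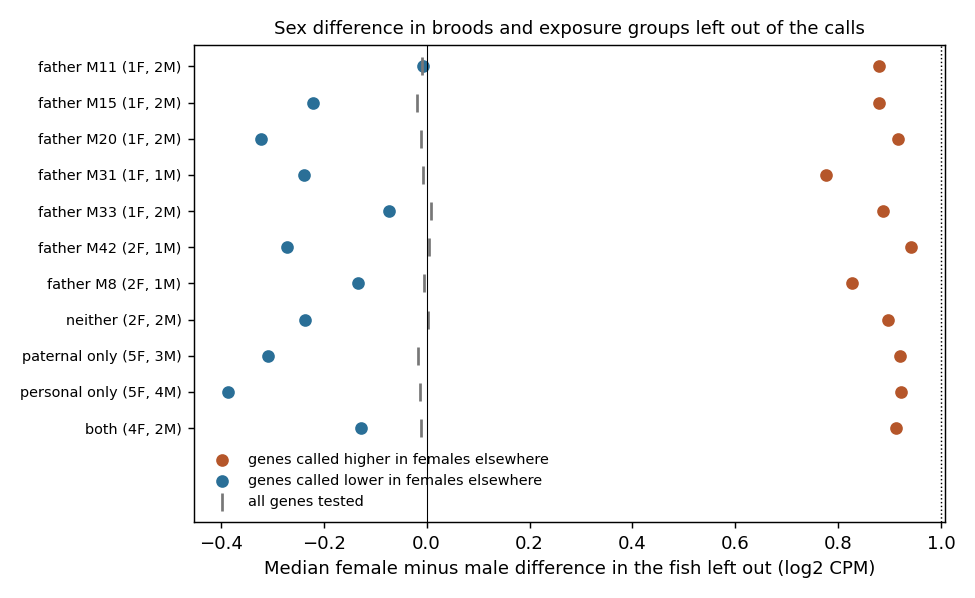
Median female minus male difference (log2 CPM) within each brood and each exposure group, over genes called without those fish as higher or as lower in females, with the median of all genes as a grey mark. The higher set lies between 0.78 and 0.94 in all 7 broods, while the lower set lies between -0.32 and -0.01. Each brood held 1 or 2 fish of each sex.

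Single fish were placed in the same manner. Genes were called without the fish, its value for each was expressed between the mean of the other males (0%) and that of the other females (100%), and the median over genes was taken. Over the genes higher in females, the 16 females lay at 92.5% to 106% and the 11 males at -1.90% to 6.73%, and none of these fish lay between. That gap is in part fixed by the choice of fish, since the 2 labelled males that lie outside the male range were left out for their expression. Over the genes lower in females, the 16 females lay at 32.2% to 123% and the 11 males at -3.68% to 71.1%. Male 9 was the highest male on this second measure and also had the widest spread around the gene medians of the males compared.

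The 2 fish left out took different places. Male 13, a son of M11 with both exposures, lay at 97.7% over the genes higher in females and at 57.2% over the genes lower in females. For 231 of the 254 genes in which all females were above all males it had a value within the female range, and for 1 gene a value within the male range. It also lay within the female range for all 9 genes in which all females were below all males. ENSGACG00000011745 had 3 reads in this fish, among 19835515 reads. Male 5, a son of M8 with neither exposure, lay at 19.2% and 31.3%, and of the 254 genes 72 were within the female range and 68 within the male range. With both fish counted as labelled, the comparison called 525 genes, 457 higher and 68 lower in females. With male 13 alone left out it called 520, and with male 5 alone left out 602.

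**Figure D5:**
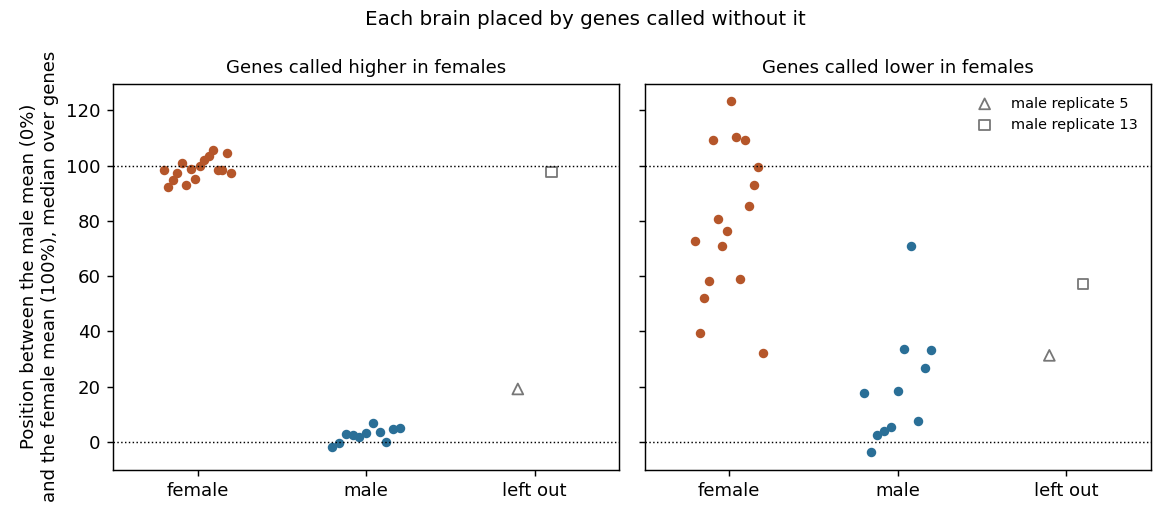
Position of each brain between the mean of the males (0%) and that of the females (100%), as the median over genes called higher (left panel) or lower (right panel) in females without that fish. In the left panel the 16 females lie at 92.5% or more and the 11 males at 6.73% or less, with male 13 at 97.7% and male 5 at 19.2%; in the right panel the sexes overlap.

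Spread among fish of the same sex was compared for these genes with exposure group means removed. For genes called higher in females the median SD was 0.226 in females and 0.222 in males, and 281 of the 513 (54.8%) varied more in females. For genes called lower it was 0.215 in females and 0.161 in males, and 74 of the 96 (77.1%) varied more in females. Over all genes tested the medians were 0.250 in females and 0.214 in males, with 66.5% of genes wider in females. No test was made of these differences in spread. Differences between fathers were not removed. The females had 10 fathers and the males 7, and the males with both exposures were brothers. Differences between families therefore cannot be told apart from a difference in spread between the sexes.

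The sex difference was then taken within each exposure group, with the spread shared over the groups. In fish with neither exposure 244 genes passed (1.46% of those tested), 235 higher (1.41%) and 9 lower in females (0.054%). With paternal exposure only 365 passed (2.19%), 334 higher (2%) and 31 lower (0.186%). With personal exposure only 345 passed (2.07%), 327 higher (1.96%) and 18 lower (0.108%). With both exposures 290 passed (1.74%), 273 higher (1.64%) and 17 lower (0.102%). Genes higher in females were thus the larger set in every group. The count in neither depended on single fish, since it was 105 without male 6, 154 without female 1, 155 without female 7, 160 without male 4 and 113 with all 29 libraries. The count in both was 0 with all 29 libraries, where male 13 is counted as male, and 981 with limma-voom.

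The calls among genes higher in females recurred across the groups. These consist of different fish but not of separate families. Every father with offspring in neither also had offspring in personal only. Every father with offspring in both also had offspring in paternal only. The spread was shared as well, so the groups do not repeat the result independently. Of the 16660 genes tested, 412 were called higher in females in at least 1 group. Among these, 189 were called in all 4, 62 in exactly 3, 66 in exactly 2 and 95 in 1. Of 50 genes called lower, 7 were called in all 4 groups, 1 in exactly 3, 2 in exactly 2 and 40 in 1. Among the 7 were ENSGACG00000011745, ENSGACG00000012099 and ENSGACG00000012640. The median difference of the genes called higher in all fish was 0.89 in neither, 0.90 in paternal only, 0.88 in personal only and 0.92 in both. These 4 values come from the fish that chose the genes.

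The genes with the largest differences within a group were in part the same as overall. In neither, ENSGACG00000006806 (3.82 ± 0.93, limma adjusted p = 0.0337) and ENSGACG00000014118 (2.11 ± 0.52) had the largest differences. In the other groups ENSGACG00000006806 did not pass, with a difference of 0.97 ± 0.89 in both (limma adjusted p = 0.740), 2.01 ± 0.67 in personal only (0.235) and 1.11 ± 0.72 in paternal only (0.654). In paternal only, ENSGACG00000010145 (2.99 ± 0.74, limma adjusted p = 0.0266) and ENSGACG00000007545 (2.41 ± 0.50) came first. In personal only these were ENSGACG00000014118 (1.89 ± 0.37) and ENSGACG00000010032 (1.77 ± 0.32). ENSGACG00000013963 and ENSGACG00000012640 were the named genes lower in females in these 3 groups. In both, ENSGACG00000013963 did not pass (-2.66 ± 0.88, limma adjusted p = 0.216). ENSGACG00000013996 passed in personal only and in both, but not in neither or paternal only (limma adjusted p = 0.0843 and 0.0915).

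ENSGACG00000010145 did not keep its direction between broods. With paternal exposure only its lowest, median and highest log2 CPM were 3.54, 5.45 and 5.96 in 5 females, against 2.19, 2.34 and 2.37 in 3 males. In personal only they were 2.97, 5.36 and 5.97 in females, against 4.74, 4.89 and 5.66 in males. Daughters were above sons by 3.76 and 3.23 in the broods of M42 and M11, and below them by a difference of -2.69 and -2.07 in those of M31 and M33. These broods held 1 or 2 fish of each sex. Over all fish the difference was 0.66 ± 0.46 and did not pass (limma adjusted p = 0.593).

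In the group with both exposures, the males shared a father, and 1 of the named genes was high in his offspring of either sex. ENSGACG00000011068 had 0.94, 1.11, 1.32 and 0.08 in females 9, 11, 12 and 16, against 3.44 and 3.96 in males 1 and 9, and its difference was -2.44 ± 0.58 (limma adjusted p = 0.0230). The sister of these males, female 6 with paternal exposure only, had 3.92. Every other fish of the comparison had 2.27 or less. The fish with a high level were therefore the 3 offspring of M15, and over all fish the gene did not pass (limma adjusted p = 0.595). In this group, sex cannot be told apart from father M15 for genes that differ between broods.

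ENSGACG00000002290 was called higher in females of the same group (3.02 ± 0.73, limma adjusted p = 0.0255), with 3.22 to 3.77 in 4 females against -1.85 in male 1 and 2.68 in male 9. The gene had 5 reads in male 1. The sister of these males, female 6, had 2.23, the lowest value of the 16 females. The 3 offspring of M15 and female 15, a daughter of M41 with 2.37, had the lowest values of the fish compared. Whether the level depends on the father was not tested. In the other 3 groups the difference of this gene was -0.05 in neither, -0.50 in paternal only and -0.03 in personal only. None of these passed. ENSGACG00000011784 (2.70 ± 0.59, limma adjusted p = 0.010) had 1.83 to 3.62 in the 4 females against -1.19 and 0.73 in males 1 and 9. For this gene every one of the 16 females lay above every one of the 11 males, and the difference over all fish was 1.51 ± 0.26 (limma adjusted p = 0.000231). The remaining named gene, ENSGACG00000012640, had a difference of -2.29 ± 0.30 in this group.

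Whether exposure changed the difference between the sexes was tested by interaction. No gene passed for paternal exposure (0% of those tested; 825 genes at an unadjusted p under 0.05), for personal exposure (0%; 433 genes) or for unequal differences among the 4 groups (0%; 540 genes), all by limma-trend. With limma-voom the counts were 1, 0 and 1. For comparison, 833 genes is the share of 0.05 of those tested. The smallest adjusted p for paternal exposure was 0.124, for ENSGACG00000003949, where the female minus male difference was more positive with paternal exposure by 0.66 ± 0.11. The fitted difference was -0.31 ± 0.14 in neither, -0.15 ± 0.10 in personal only, 0.25 ± 0.11 in paternal only and 0.60 ± 0.13 in both. Only the value in both passed (limma adjusted p = 0.00994). The 2 males with both exposures were brothers. Mean log2 CPM of this gene was 3.61 in females and 2.97 in males with both exposures, 3.53 in females and 3.69 in males with personal only, 3.69 in females and 3.45 in males with paternal only, and 3.51 in females and 3.81 in males with neither. With limma-voom the same gene passed (0.67 ± 0.11, limma adjusted p = 0.0398), and it also passed without female 9 (limma adjusted p = 0.0474). For personal exposure and for the test over 4 groups the smallest adjusted p was 0.999. Groups with 2 fish of a sex limit what these tests can find, and an interaction that did not pass does not show that the difference was equal. No father had offspring both with and without paternal exposure. A change of the sex difference with paternal exposure therefore cannot be told apart from differences between broods.

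Without male 1 or without male 9, brothers with both exposures, some genes passed. Without male 9, ENSGACG00000002290 passed for both exposures (2.43 ± 0.29 for paternal and 2.90 ± 0.31 for personal exposure, limma adjusted p = 0.000416 and 6.8e-05). Without male 1, ENSGACG00000003836 passed for both (4.52 ± 0.57 and 4.80 ± 0.61, limma adjusted p = 0.00103 and 0.00128), and 6 genes passed the test over the 4 groups, that gene among them. Without female 7 or without male 9 that test passed 1 gene each. Without female 7, ENSGACG00000016127 passed for paternal exposure (3.83 ± 0.55, limma adjusted p = 0.0107). In each case the fish left out reduced a group to 1 fish of that sex, assumed to vary like the others.

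The contrasts between exposure groups in the same fish and the same model called far fewer genes than sex did. Both against neither called 3 genes (0.018% of those tested), which were ENSGACG00000001969, ENSGACG00000006877 and ENSGACG00000020611. Both against personal only called 1 gene (0.006%), ENSGACG00000009971. In these contrasts, no father had offspring in each of the groups compared. Exposure therefore cannot be told apart from father for these genes. Sex was compared in part within broods, as 7 fathers had offspring of each sex. The other 4 contrasts called 0 genes by limma-trend, with 574 to 1258 genes at an unadjusted p under 0.05. At that unadjusted level both against neither had 1784 genes and both against personal only 1222. Sex had 2166, and 833 is the share of 0.05 of those tested. Sex compared 16 fish with 11, more than any of these contrasts, so the counts do not rank the sizes of the effects.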

How the data were processed

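Per the labels, poly-A RNA of whole brains was sequenced single-end. The labels' protocols state 1 more fish with paternal exposure only than the 8 used here; it was not analysed here. Per the submitters' processing notes, the authors' tools were TopHat2 2.0.8, CASAVA 1.8.2, edgeR (no version) and HTSeq 0.6.1. Those notes name the build NCBIM37, which is a name for mouse and cannot be that of stickleback genes. The true build is therefore not stated. Strand in counting is likewise not stated, so reads of overlapping genes, antisense genes and near-identical copies cannot be assigned with certainty. The authors deposited log2 CPM values for 17730 genes. The lowest value, -6.77, is that of 0 reads in every library. Whole reads were recovered for 100% of values within 0.01 reads.

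Columns were matched to fish by library title. A gene was tested if at least 5 of all 29 columns had a log2 CPM above 0, which 16660 did. Because the deposited unit is log2, limma-trend was used (R 4.3.3 with limma 3.58.1 and statmod 1.5.0), with 4 exposure group means and sex, and father as a random block with a consensus correlation of 0.168 over genes. Within-group differences and interactions came from 8 exposure-by-sex means. The p-values were adjusted by Benjamini-Hochberg over all tested genes, and 0.05 was the threshold. The fit was first run on simulated reads with known differences. That simulation used the same setting of spread between fish for every gene and no outlying fish. It therefore does not show how the fit performs on these data. The column of male 13 and that of male 5 were left out by the rule that defines the comparison. Sex is the label's; no label was changed.

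Of the identifiers, 0 matched the reference table (fGasAcu3.hap1.1). Gene lists and cell type markers could therefore not be looked up, and the labelled tissue could not be checked against its markers. The rule for named genes allows 2 identifiers in each direction per comparison; genes outside it are marked. The comparison, its members and its lists were chosen with earlier results of these data known. Alternatives covered the libraries left out, the father block, lane, gene filters, normalization, prior variance, library weights, the threshold, limma-voom on the recovered reads, and each fish or father left out. Sequencing lane was not in the main model and was uneven between the sexes. Lanes 4, 5, 6, 7 and 8 held 3, 5, 4, 3 and 1 females and 2, 1, 2, 3 and 3 males. Recovered reads carry no molecular identifiers, so copies of the same molecule cannot be told from separate molecules. Read numbers therefore describe counting error at best, and not the spread between fish. The labels give separate fish with named fathers, so the spread is between animals, some of them siblings.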

Additional observations from a re-analysis of the deposited data

Results flagged for a closer look

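Fish far from the others of their sex and exposure group were looked for in the named genes. A fish was marked when its gap to the nearest of the others exceeded Dixon's critical value, in groups of 4 or 5 fish. This happened in 11 of 100 sets, and chance marks about 1 in 20. The 2 marks of ENSGACG00000011745 carry no weight in that share, because all other fish of the set had 0 reads and any read marks a fish. In the group with both exposures, female 11 had a log2 CPM of 1.79 for ENSGACG00000007545, against 2.91 to 3.05 in the other 3 females. Female 12 had 5.35 for ENSGACG00000012099, against 5.40 to 5.41, and -4.06 for ENSGACG00000011745, where the other 3 had no reads.

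With paternal exposure only, female 6 had 2.97 for ENSGACG00000006806, against 1.31 to 1.78 in the other 4 females. Female 4 had 1.71 for ENSGACG00000012640, against 2.57 to 2.79. The same fish had 2.72 for ENSGACG00000007545, against 3.62 to 3.89, and -3.91 for ENSGACG00000011745, where the other 4 had no reads.

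With personal exposure only, female 15 had 2.71 for ENSGACG00000013963, against -0.34 to 0.45 in the other 4 females, and 2.37 for ENSGACG00000002290, against 3.30 to 3.54. Female 2 had 4.37 for ENSGACG00000019175, against 4.61 to 4.68, and female 3 had 3.70 for ENSGACG00000007419, against 3.99 to 4.10.

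Male 13 was left out of the main comparisons. It had values within the female range in 231 of the 254 genes for which all females lay above all males. Its label and its values go against each other, and the cause was not tested.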

How the results depend on the processing

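All 370 alternative values of the 7 named genes kept their direction and side of the threshold, and 382 of 409 alternative counts stayed within 1.5 times the reported count. The 7 genes were chosen for large differences or small p-values, and the alternatives use nearly the same fish. Their agreement was therefore largely fixed in advance. For the interactions and the test over 4 groups the reported count was 0, and an alternative count of 0 was scored as within the bound. Most alternatives left out 1 fish or 1 father. Agreement of the counts was thus also in part fixed in advance. Leaving out each fish or father gave 514 to 654 genes for sex over all fish, 201 to 324 in both, 274 to 354 in personal only, 246 to 385 in paternal only, 52 to 247 in neither, 0 to 1 for each interaction and 0 to 6 for the test over 4 groups. In neither, the count was 139 without father M20, 52 without M33 and 156 without M8. The test over 4 groups gave 6 without male 1. With all 29 libraries the count was 113 in neither and 0 in both; with only male 5 left out it was 118 and 0. In neither it was 156 with lane as a term and 151 with libraries of at least 4000000 reads, an alternative chosen after seeing the data. In both it was 129 with the libraries of that group alone, which lacks the shared spread and the father block. With limma-voom the counts were 1109 over all fish, 981 in both, and 1 each for sex by paternal exposure and the test over 4 groups; the cause was not tested. The genes called lower in females ranged from 32 (threshold 0.01) to 398 (limma-voom). The share of calls higher in females was 84.2%, against 77.3% with quantile normalization, 80.8% with median centring and 74.1% with library weights. With father as a fixed term, which compares siblings within broods, 528 genes passed, of which 484 were shared with the 609. The planned tests with edgeR and DESeq2 were not run, and the recovered reads were tested with limma-voom alone. Replicate numbers pair nothing here; the father is the only pairing the labels give. Low depth limits genes with few reads, in which a difference may not have been detectable.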

Other observations

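The genes called higher in females were unevenly spread over the numbers of the gene identifiers, a pattern chosen after the values were seen. Of the tested genes with identifier numbers from 3000 to under 15000, 495 of 9733 were called higher in females (5.09%), against 18 of 6927 with other numbers (0.26%). The bounds do not divide the genes cleanly: among numbers from 14000 to under 15000 the share was 1.16% (9 of 779), and among those from 22000 it was 6.45% (2 of 31). For genes called lower in females the shares were 0.627% and 0.505%. No source used here says how the numbers were assigned, and no test was made.

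The level of ENSGACG00000013996, a gene chosen after its values were seen, was uneven between broods. No test of father was made, and exposure also differs between fathers. For this gene, the 1 daughter of M31 had a log2 CPM of 3.40 and the 2 daughters of M42 a mean of 3.25. The 1 son of each of these fathers had 1.16 and 2.59. The 1 daughter each of M20 and M33 had 0.63 and 1.07, and the mean of their 2 sons each was -4.95 and -6.77. In other broods the sexes did not go together: the 1 daughter of M15 had 2.72, while his 2 sons had a mean of -4.27. Daughters of M8 and M11 had a mean or value of 1.97 and 1.65, and their sons -5.02 and -5.09. Fathers M9, M41 and M43 had daughters only, with means of 3.13, 2.40 and 3.15. The value -6.77 is that of 0 reads, so differences against it are set by the prior.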
